A study of Mus musculus with 10 samples.

Results

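The genes described here are 43 genes of the extracellular matrix and of hepatic stellate cells, chosen by name from the 39056 genes of the count table. They comprise collagens and laminins, matrix proteoglycans and glycoproteins, enzymes that cross-link or cut the matrix, inhibitors of those enzymes, cytoskeletal proteins of stellate cells and myofibroblasts, and receptors and secreted signals of stellate cells. All 43 were matched to 1 identifier each, and all 43 passed the filter on low counts that left 15811 genes for testing. Their values were read from RNA of mouse liver and of liver tumours, in wild-type (WT) mice and in mice lacking the mixed-lineage kinase MLK3 (KO), which is encoded by Map3k11 and acts upstream of the stress kinase JNK.

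All mice were male C57BL/6 mice, killed at 11 months of age. WT liver (2 libraries) and KO liver (2 libraries) came from mice that drank plain autoclaved water. WT tumour (3 libraries) and KO tumour (3 libraries) came from mice injected intraperitoneally with the carcinogen DEN, 5 µg per g of body weight, at 2 weeks of age, and given 0.05% PB, a tumour promoter, in the drinking water after a lag of 1 week and until they were killed. The series design calls the replicates biological. No tumour came from an untreated mouse and no liver from a treated one, so a difference between tumour and liver and an effect of the treatment cannot be told apart. By their source label the treated samples are tumour tissue, whereas the extraction protocol speaks of treated liver, and neither says how much surrounding liver was included, which part of Map3k11 was deleted or in which cells. Libraries were made from 3' ends of transcripts, so that a count depends little on transcript length. Levels are in CPM, counts scaled to a common library size after TMM normalization, and changes are log2 fold changes from edgeR. Their standard error (SE) is an approximation derived from the edgeR test, the absolute log2 fold change divided by the square root of its F statistic. A gene is said to have passed the test, to have risen or to have fallen where its Benjamini-Hochberg adjusted p over all 15811 genes was under 0.05.

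Hepatic stellate cells lie between the sinusoidal endothelium and the hepatocytes and store vitamin A. When activated by injury they turn into contractile, matrix-producing myofibroblasts that express smooth muscle actin and deposit fibril-forming collagen. TGF-β and PDGF are the signals best known to drive that change, and portal fibroblasts, endothelial cells and hepatocytes also make part of the liver's matrix, fibronectin above all in the case of hepatocytes. In bulk tissue, fewer cells of a type and less RNA per cell cannot be told apart.

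Total counts ran from 12408749 to 18081487 per library. Map3k11 had 126 and 237 counts in the WT livers, 94 and 82 in the KO livers, 234, 131 and 223 in the WT tumours, and 130, 147 and 81 in the KO tumours, and it passed the test in none of the 5 comparisons (adjusted p from 0.719 to 0.972); tags from the 3' end do not check a deletion elsewhere in the gene. KO tumour 2 stood apart from the other KO tumours: the tumour marker Gpc3 had 7 counts in it against 608 and 678 in the KO tumours 1 and 3, and the summed level of 13 cholangiocyte markers was 73.7 CPM in it, below both KO livers (89.9 and 93.6 CPM), against 350 and 207 CPM in KO tumours 1 and 3. Gpc3 had 0 and 70 counts in the KO livers, so KO tumour 2 lay within the liver range for it. How much tumour tissue KO tumour 2 held is not given by the labels, and values without it are given beside the calls that depend on it. WT tumour 1 had the highest level of the 3 WT tumours for 29 of the 43 genes (67.4%, against 35.7% of all genes tested). KO tumour 1 was the highest KO tumour for 25 of them (58.1%, against 34.6% of all genes). KO tumour 2 was the lowest for 28 of the 43, beside 34.8% of all genes.

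The 7 defining markers of stellate cells, Lrat, Reln, Colec11, Hand2, Rgs5, Pdgfrb and Des, were present in every library. Their summed level was 158 ± 14.4 CPM in the 2 WT livers (SD), 168 ± 7.52 in the 2 KO livers, 164 ± 33.8 in the 3 WT tumours, and 154 ± 15.4 in the 3 KO tumours. The group ranges thus lay close together, but the sum joins genes that differed from liver in opposite directions in WT tumours. Reln lay above all other libraries there, whereas Lrat and Colec11 lay below both WT livers. Lrat, which esterifies retinol for storage, stood at 18.5 and 19.4 CPM in the WT livers, 21.6 and 9.28 in the KO livers, 12.8, 4.95 and 5.07 in the WT tumours, and 29.6, 23.4 and 8.87 in the KO tumours. The soluble lectin Colec11 stood at 31.5 and 30.8 CPM in the WT livers, 32.6 and 33.9 in the KO livers, 10.8, 26.4 and 11.3 in the WT tumours, and 22.3, 31.2 and 28.8 in the KO tumours. For both genes the WT tumours lay below both WT livers, without passing the test (Lrat -1.31, SE 0.56, adjusted p = 0.184; Colec11 -0.95, SE 0.38, adjusted p = 0.15). The transcription factor Hand2 ranged from 1.35 CPM in WT tumour 3 to 11.9 CPM in WT liver 1, and the G-protein regulator Rgs5, which pericytes also express, from 34.6 CPM in WT liver 1 to 64.7 CPM in WT tumour 1. Of the 7 defining markers, only Reln passed the test, in 1 comparison described below, and none was at 0 in any library.

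**Figure D1:**
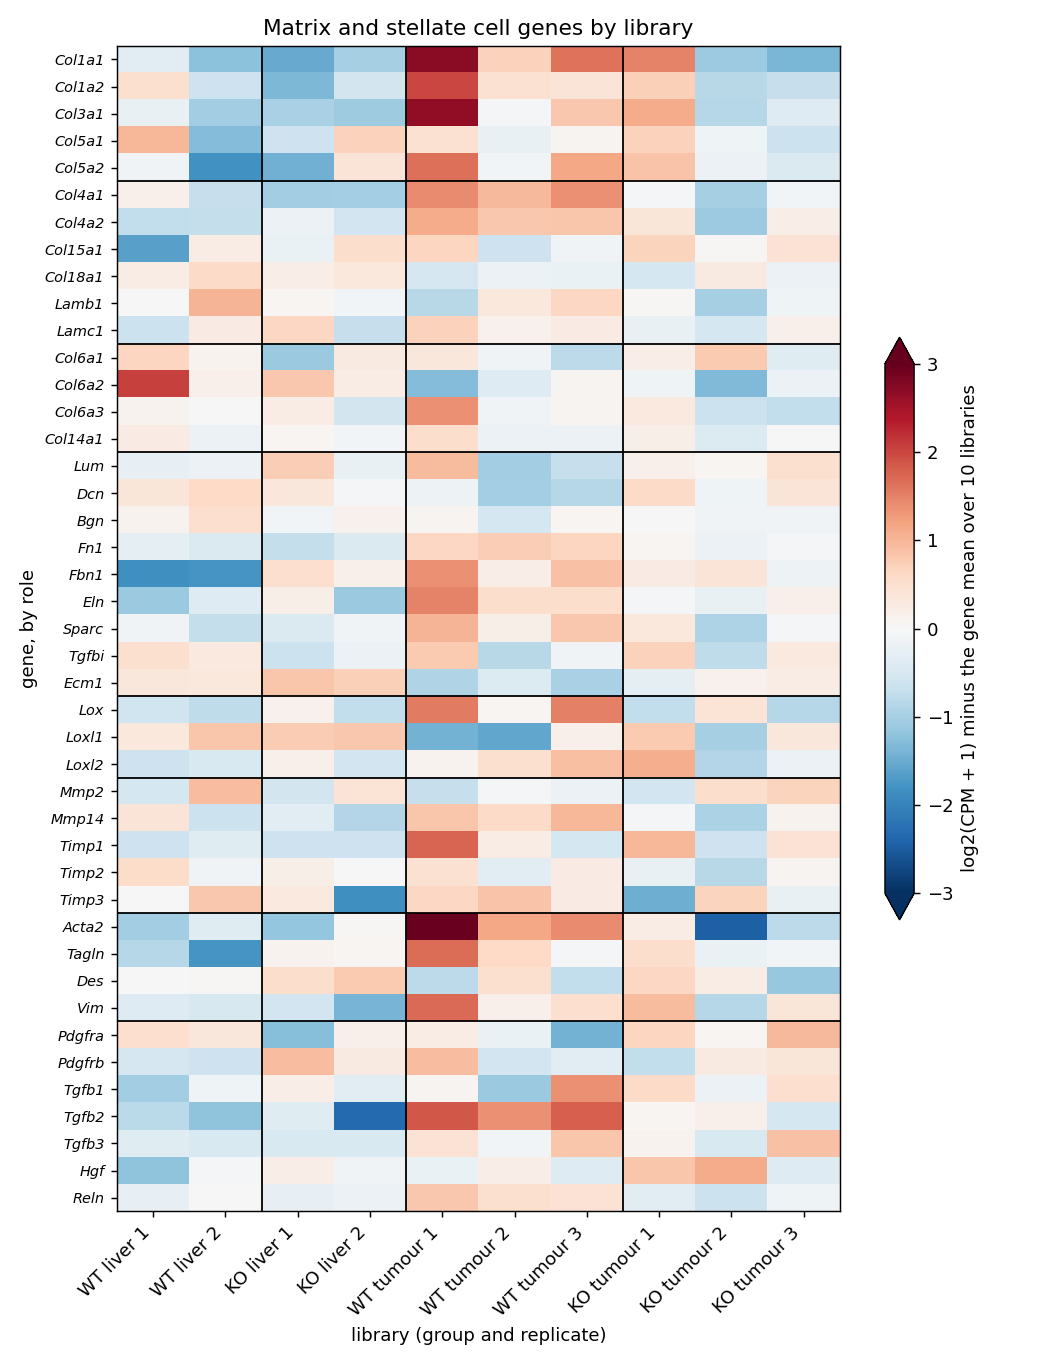
Level of each of the 43 genes (rows, by role) in each of the 10 libraries (columns), as log2(CPM + 1) minus the gene's mean over the libraries; black lines separate roles and groups. WT tumour 1 holds the darkest red cells, in Acta2, Col1a1 and Col3a1, and is the highest WT tumour for 29 of the 43 genes.

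WT tumours differed from WT liver in few of these genes past the test, and they did so in both directions. Col4a1, Col4a2, Fn1 and Fbn1 rose and Dcn and Ecm1 fell. The 4 risen genes are 9.3% of the 43, beside 3.64% of all genes tested, and the 2 fallen ones 4.65%, beside 4.7%. The median log2 fold change was 0.71, against 0.09 over all genes, and 29 of the 43 values were positive. In 18 genes both WT livers lay below all WT tumours, or 41.9% of the 43, beside 19.6% of all genes, and in 7 genes they lay above, beside 17.6%. An unadjusted p under 0.05 was reached by 16 of the 43 (all genes 21.4%), and DESeq2 called 11 higher and 3 lower (all genes 8.27% and 7.21%). The count of risen genes was 0 without WT liver 2, 2 without WT tumour 1 or WT tumour 3, 6 without KO tumour 1, and 7 without KO tumour 2 or either KO liver. The count of fallen genes was 0 without WT liver 2 or WT tumour 3 and 1 without WT liver 1, WT tumour 1 or WT tumour 2. Without WT tumour 1 the median was 0.39.

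In KO tumours against KO liver none of the 43 passed, where 0.0759% of all genes did. An unadjusted p under 0.05 was reached by 4 of them (all genes 9.61%), and DESeq2 called none of the 42 it could test (all genes 2.95%). The KO tumours lay above both KO livers in 3 genes and below them in 2, beside 14.3% and 12.4% of all genes. Their median log2 fold change was 0.22, against 0.06 over all genes. Without Timp1 and Tgfb3, which had no count in KO liver, the median was 0.16 (0.22 with both at their limits of 3 counts, which lie above the median), and without KO tumour 2 it was 0.33, again with no gene called.

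KO tumours against WT tumours gave 4 genes lower, Col4a1, Fn1, Acta2 and Reln, and none higher. Those 4 are 9.3% of the 43, beside 1.27% of all genes called lower, while 3.25% of all genes were called higher. The median was -0.51 (all genes -0.03; -0.23 without KO tumour 2), and 13 of the 43 values were positive. All KO tumours lay below all WT tumours in 8 of the 43 genes, beside 10.9% of all genes, and above them in 2, beside 12.2%. An unadjusted p under 0.05 was reached by 14 (all genes 14.9%), and DESeq2 called 1 higher, Dcn, and 5 lower, the fifth being Mmp14 (all genes 5.53% and 2.64%). The count of fallen genes was 1 without WT tumour 1 or KO tumour 2, and 2 without WT tumour 2, WT tumour 3 or KO tumour 3. Dcn alone was called higher without WT tumour 1, KO tumour 2 or either WT liver, and Col4a1 kept its call in each of the 16 alternative analyses.

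**Figure D2:**
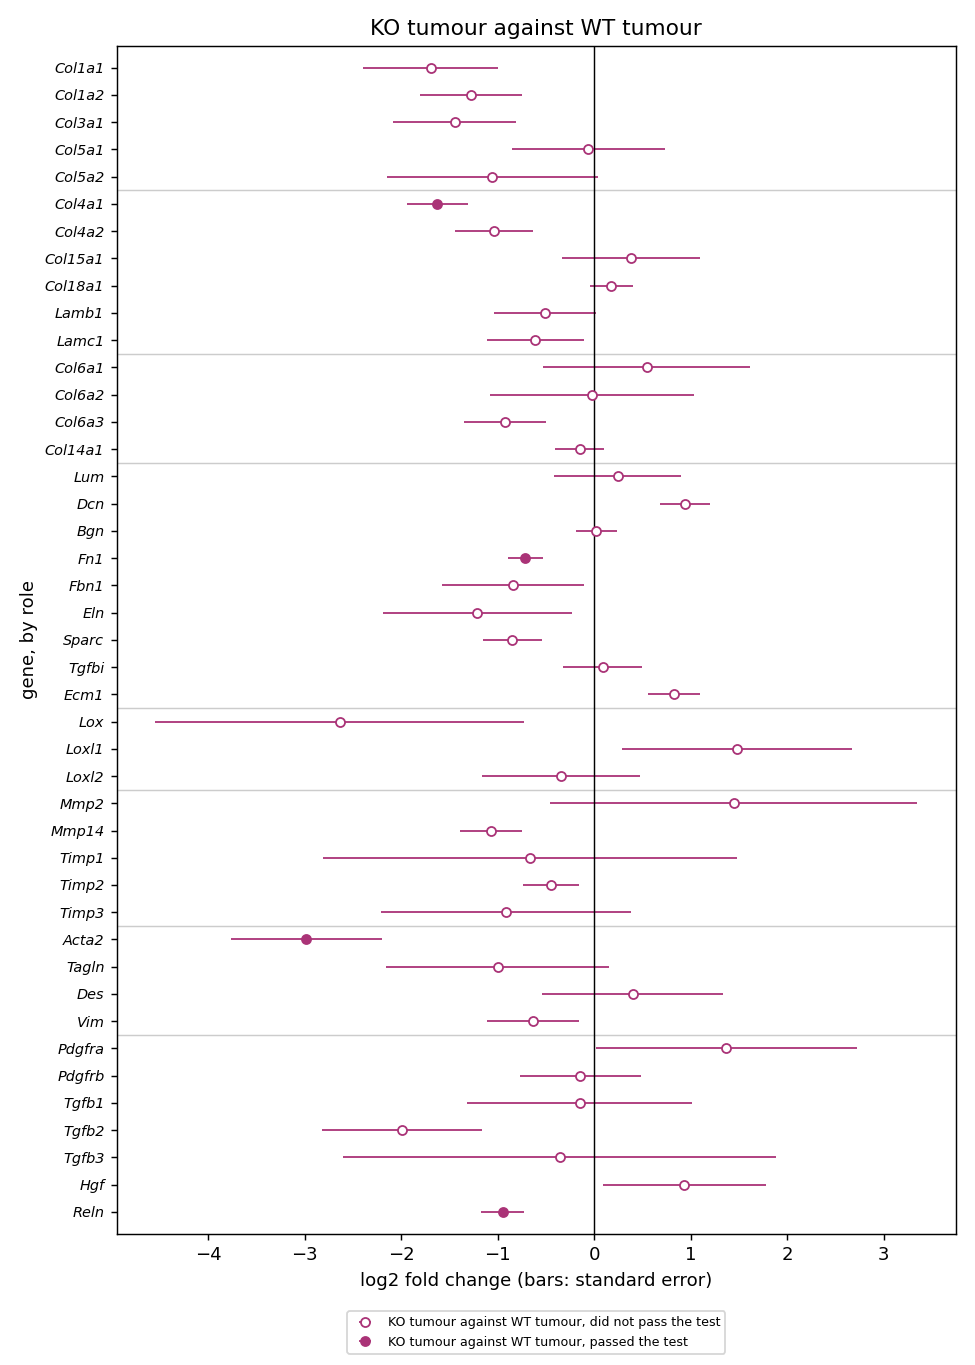
Log2 fold change of KO against WT tumours for the 43 genes, ordered by role, with bars of 1 standard error; filled points passed the test. The filled points, Col4a1, Fn1, Acta2 and Reln, all lie left of 0.

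KO liver against WT liver gave no call among the 43 genes (2 with an unadjusted p under 0.05, all genes 7.28%), where 0.00632% of all genes were called. The KO livers lay above both WT livers in 6 genes and below them in 6, beside 15.5% of all genes each way. The median was -0.11, against 0 over all genes, and -0.10 without Timp1 and Tgfb3, which were at or under 3 counts in every liver library. The difference between the tumour-to-liver changes of KO and WT mice, the interaction, passed for none of the 43 either (5 with an unadjusted p under 0.05, all genes 12.7%), where 1.59% of all genes were called. DESeq2 called 1 of the 43 in each of these comparisons, Fbn1 both times, higher in KO liver (all genes 0.632%) and lower in the interaction (all genes 1.87%). The comparisons share libraries, so their values are not independent of each other.

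Fibril-forming collagens are the tensile core of scar. Type I collagen is built from the chains of Col1a1 and Col1a2, type III from Col3a1, and the type V chains Col5a1 and Col5a2 start and thin the fibrils. None of the 5 genes passed the test in any comparison, and the WT tumours differed widely among themselves. Col1a1 (chromosome 11, 94936224 to 94953042, plus strand) stood at 9.49 and 4.67 CPM in the WT livers, 3.66 and 5.6 in the KO livers, 85.6, 20.4 and 39.5 in the WT tumours, and 35.8, 5.24 and 4.11 in the KO tumours. Every WT tumour lay above both WT livers, whereas KO tumour 1 alone lay above the KO livers by a wide margin and overlapped the WT tumours. The tumour-to-liver change was 2.78 (SE 0.86, adjusted p = 0.061) in WT and 1.70 (SE 0.83, adjusted p = 0.539) in KO mice, and KO against WT tumours gave -1.69 (SE 0.70, adjusted p = 0.254), or -0.97 (adjusted p = 0.674) without WT tumour 1. Without KO tumour 1 that difference was -3.37 and passed (adjusted p = 0.00571).

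Col3a1, too, was highest in replicate 1 of both tumour groups. It stood at 11.7 and 6.24 CPM in the WT livers, 6.58 and 6.09 in the KO livers, 93.5, 13.6 and 24.8 in the WT tumours, and 31, 7.19 and 10.3 in the KO tumours. WT tumour 1 therefore held several times the level of its fellow WT tumours, and the change in WT mice was 2.29 (SE 0.76, adjusted p = 0.0825). For Col1a2 the WT groups overlapped, since WT liver 1 (28.1 CPM) lay above WT tumours 2 and 3 (27.6 and 26.1 CPM) and only WT tumour 1 reached 81.9 CPM. The ratio of Col1a1 to Col1a2 counts was 0.338 and 0.376 in the WT livers, 0.512 and 0.425 in the KO livers, 1.05, 0.739 and 1.51 in the WT tumours, and 1.07, 0.487 and 0.348 in the KO tumours. The WT tumours had a higher ratio than each of the 4 livers, and so did KO tumour 1. Col5a1 showed no such pattern, its group means lying between 5.43 and 6.29 CPM, and Col5a2 reached at most 11.5 CPM. DESeq2 and 7 other alternatives called Col1a1 higher in WT tumours, and DESeq2 and 3 others Col3a1.

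Summed over the 5 genes, fibril-forming collagens stood at 44 ± 27 CPM in the WT livers, 29.3 ± 12.1 in the KO livers, 151 ± 113 in the WT tumours, and 58.8 ± 48.8 in the KO tumours. The ranges of the tumour groups overlapped, from 68.6 to 280 CPM in WT and from 30.2 to 115 CPM in KO. The sum of portal fibroblast and mesothelial genes was also highest in the WT tumours: it was 20.5 CPM in the WT livers, 21.4 in the KO livers, 74.7 (66.7 to 89.6) in the WT tumours, and 31.6 (13.8 to 44.7) in the KO tumours. Of the 15 of these genes that were tested, 1 passed in WT tumours against liver (Entpd2, higher), beside 3.64% of all genes called higher. Entpd2 was also lower in KO than in WT tumours (-2.88, SE 0.56, adjusted p = 0.00659), beside 1.27% of all genes called lower. The part of these genes in the collagen values was not tested.

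Type IV collagen genes passed the test in WT tumours against liver, and 1 of them between the tumours of the 2 genotypes. Col4a1 and Col4a2 encode the chains that form the type IV collagen network under endothelium and epithelium. The genes lie head to head on chromosome 8 of GRCm38, Col4a1 at 11198423 to 11312826 on the minus strand and Col4a2 at 11312805 to 11449287 on the plus strand, so that their first exons overlap by 22 bases at chr8:11312805-11312826. That overlap, RefSeq sequence of build GRCm38.p6, is shown on the plus strand because it is the stretch from which both genes are read in opposite directions.
Col4a1/Col4a2 overlap: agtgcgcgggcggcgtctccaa

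Col4a1 stood at 33.7 and 18.3 CPM in the WT livers, 14.1 and 14.3 in the KO livers, 82.5, 60.1 and 80.3 in the WT tumours, and 29.3, 14.6 and 28.4 in the KO tumours. All WT tumours were at least as high as 60.1 CPM and none of the other 7 libraries exceeded 33.7. It rose in WT tumours against liver by 1.52 (SE 0.36, adjusted p = 0.0151) and was lower in KO than in WT tumours by -1.63 (SE 0.31, adjusted p = 0.00591). KO tumours against KO liver gave 0.76 (SE 0.35, adjusted p = 0.515), and the interaction of -0.76 (SE 0.49, adjusted p = 0.579) did not pass. Without WT liver 2, WT tumour 1 or WT tumour 3 the rise in WT mice missed the threshold (adjusted p = 0.149, 0.0543 and 0.0537), whereas without KO tumour 2 the difference between the tumours was -1.36 (adjusted p = 0.0271) and without WT tumour 1 -1.53 (adjusted p = 0.0332).

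Col4a2 moved with its neighbour in the WT mice. It stood at 7.92 and 8.07 CPM in the WT livers, 12.2 and 9.07 in the KO livers, 31.6, 25.3 and 25.9 in the WT tumours, and 18.2, 6 and 16.2 in the KO tumours. Again all WT tumours lay above the other 7 libraries. The rise in WT mice was 1.79 (SE 0.48, adjusted p = 0.0307), and KO against WT tumours gave -1.04 (SE 0.41, adjusted p = 0.216). Leaving out any single WT liver or WT tumour ended the call (adjusted p from 0.0623 to 0.133), with the change between 1.67 and 1.82. Counts of Col4a1 per count of Col4a2 ranged from 1.15 in KO liver 1 to 4.25 in WT liver 1.

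The remaining basement membrane genes did not share this rise. Col18a1, whose C-terminal fragment is endostatin and which hepatocytes make, was the most abundant collagen of the 43: it stood at 381 and 490 CPM in the WT livers, 373 and 407 in the KO livers, 229, 291 and 287 in the WT tumours, and 227, 394 and 291 in the KO tumours. All WT tumours lay below both WT livers, with a change of -0.69 (SE 0.25, adjusted p = 0.104) that only DESeq2 called. The laminin chain Lamb1 ranged from 4.26 to 20.5 CPM over the 10 libraries, Lamc1 from 5.67 to 16.4 and Col15a1 from 1.13 to 9.48, with overlapping groups in both tumour-to-liver comparisons. Endothelial cells are a main source of basement membrane, and 22 endothelial markers summed to 710 ± 86.5 CPM in the WT livers, 701 ± 33.2 in the KO livers, 751 ± 92.5 in the WT tumours, and 722 ± 59.6 in the KO tumours, none of the 22 passing the test in any comparison. Cholangiocytes rest on a basement membrane too: 13 of their markers summed to 127 CPM in the WT livers, 91.8 in the KO livers, 526 (380 to 602) in the WT tumours, and 210 (73.7 to 350) in the KO tumours, and their part in the Col4a1 values was not tested.

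Of other basement membrane genes, 2 of 19 rose in WT tumours (3.64% of all genes) and 1 of them, the linker Nid1, was lower in KO than in WT tumours (1.27% of all genes). Nid1 stood at 7.79 and 7.69 CPM in the WT livers, 6.69 and 5.95 in the KO livers, 121, 130 and 167 in the WT tumours, and 47.5, 10.4 and 52.9 in the KO tumours. It rose by 4.17 (SE 0.55, adjusted p = 0.000208) and differed between the tumours by -1.92 (SE 0.42, adjusted p = 0.0135; -1.73, adjusted p = 0.0649, without WT tumour 3). The laminin chain Lama5 had no count in either WT liver, 74 and 3 in the KO livers, 78, 173 and 169 in the WT tumours, and 78, 18 and 45 in the KO tumours. Among 13 other collagens tested, Col4a3 rose in WT tumours (3.98, SE 0.83), and the fibrillar chains Col5a3 (-3.72, SE 0.80) and Col27a1 (-2.54, SE 0.44) fell there and were higher in KO than in WT tumours (3.10 and 1.75, adjusted p = 0.0255 and 0.019). Of all genes, 3.64% rose and 4.7% fell in WT tumours, and 3.25% were higher in KO than in WT tumours. Without WT liver 1 the Col4a3 call missed the threshold (3.35, adjusted p = 0.0526). The difference in Col5a3 between the tumours was lost without WT tumour 3, KO tumour 2 or KO tumour 3 (adjusted p from 0.0682 to 0.104), and that in Col27a1 without WT tumour 2, WT tumour 3 or KO tumour 2 (adjusted p from 0.0572 to 0.121).

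Type VI collagen forms beaded microfibrils around cells, and type XIV decorates the surface of fibrils. None of these genes passed in any comparison. Col14a1, the most abundant of the 4, stood at 66.3 and 49.3 CPM in the WT livers, 58.1 and 52.6 in the KO livers, 80.9, 49.8 and 49.8 in the WT tumours, and 63.6, 42.2 and 56.9 in the KO tumours, and all its contrasts lay between -0.15 and 0.06. Col6a3 was flat except in WT tumour 1, with 60.7 CPM against 13.3 to 28.4 CPM in the other 9 libraries. Col6a1 and Col6a2 were low, at 0.572 to 4.89 and 0.349 to 13 CPM, and for Col6a2 all tumours lay below all livers of the same genotype.

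**Figure D3:**
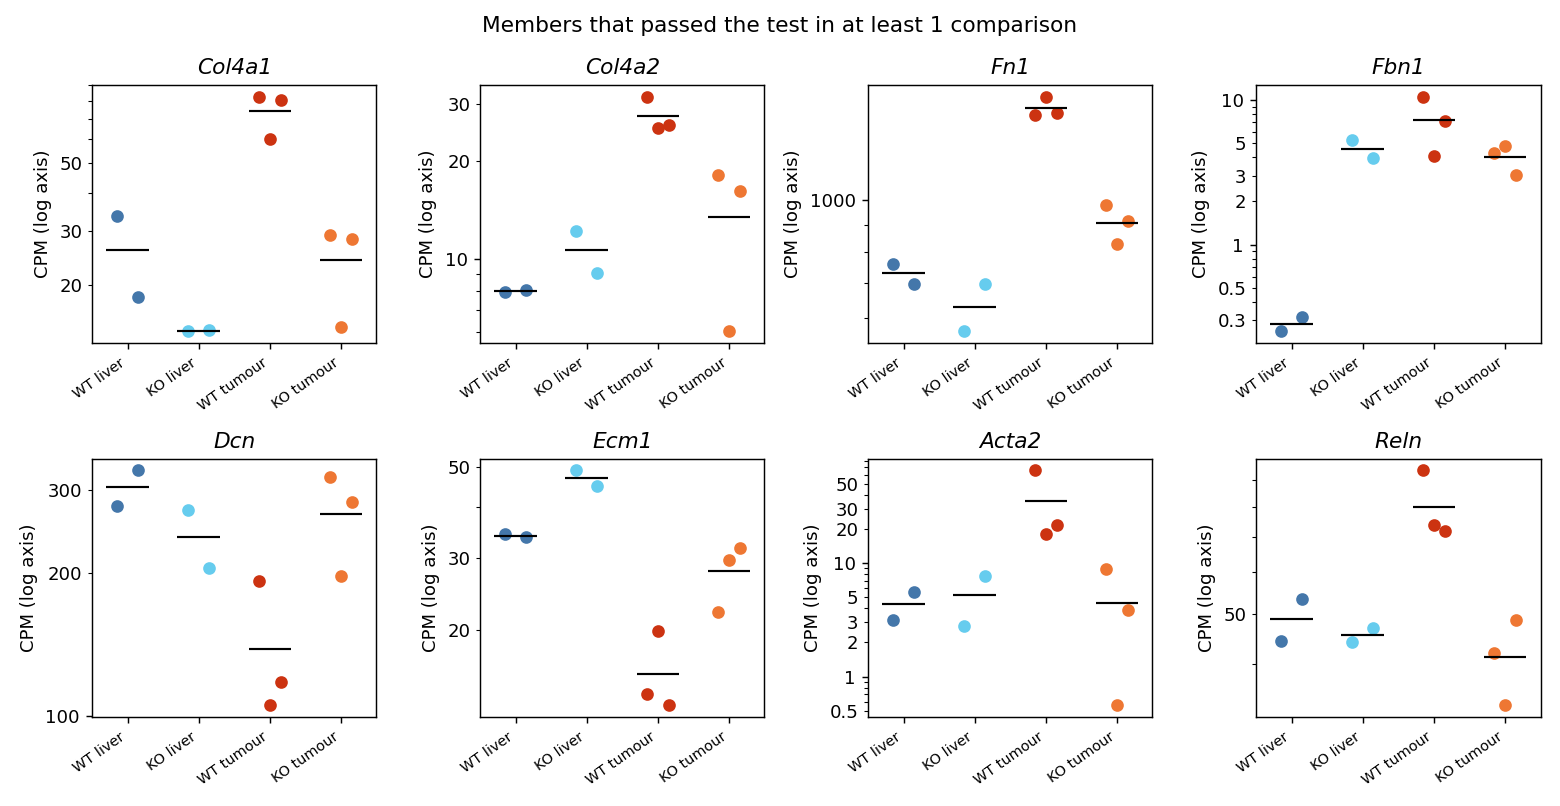
CPM per library (points, log axis) in the 4 groups, with a line at each group mean, for the 8 genes that passed the test in at least 1 comparison. For Col4a1, Col4a2, Fn1, Acta2 and Reln the 3 WT tumours lie above all other libraries. For Dcn and Ecm1 they lie below all others.

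The glycoproteins and proteoglycans held the most abundant gene of the 43 and changes in both directions. Fn1 (chromosome 1, 71585520 to 71653200, minus strand) encodes fibronectin, which hepatocytes secrete into plasma and mesenchymal cells assemble into fibres. It stood at 760 and 697 CPM in the WT livers, 567 and 695 in the KO livers, 1447, 1566 and 1456 in the WT tumours, and 979, 826 and 915 in the KO tumours. The replicates agreed closely, and the WT tumours lay above every other library while the KO tumours lay above both KO livers. Fn1 rose in WT tumours by 1.03 (SE 0.21, adjusted p = 0.00561), gave 0.52 (SE 0.21, adjusted p = 0.416) in the KO tumours against KO liver, and was lower in KO than in WT tumours by -0.72 (SE 0.18, adjusted p = 0.0344). The interaction was -0.51 (SE 0.29, adjusted p = 0.505). The call between the tumours was kept in 7 of 16 alternatives; it was lost with the compared groups only (adjusted p = 0.0695), without either KO liver (adjusted p = 0.0521 and 0.0518), without any WT tumour (adjusted p from 0.0688 to 0.117) and without KO tumour 2 or 3 (adjusted p = 0.0929 and 0.119), with the size between -0.65 and -0.72. The rise in WT tumours was lost without WT liver 2 (0.97, adjusted p = 0.0713).

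Fibronectin shares its hepatocyte origin with the plasma proteins of the hepatocyte list. In that list of 10 genes, 4 rose and 2 fell in WT tumours (3.64% and 4.7% of all genes), and in KO against WT tumours 4 were lower and 1 higher (1.27% and 3.25% of all genes). Albumin (Alb) rose in WT tumours by 1.21 (SE 0.23) and was lower in KO than in WT tumours by -1.23 (SE 0.20), and the fetuin gene Ahsg did likewise (1.78 and -1.64). The summed level of the 10 genes was 50236 to 51840 CPM in the WT livers, 54071 to 57252 in the KO livers, 90753 to 116615 in the WT tumours, and 45617 to 52389 in the KO tumours. Their part in the Fn1 values was not tested.

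Fbn1 (chromosome 2, 125300594 to 125507993, minus strand) encodes fibrillin 1, the backbone of elastic microfibrils. It had 4 and 5 counts in the WT livers, 92 and 56 in the KO livers, 202, 56 and 112 in the WT tumours, and 56, 69 and 42 in the KO tumours. The 2 WT livers were thus the only libraries nearly without it. The rise in WT tumours was 4.64 (SE 1.04, adjusted p = 0.0105), while KO tumours against KO liver gave -0.19 (SE 0.81, adjusted p = 0.978) and KO against WT liver 3.99 (SE 1.04, adjusted p = 0.433). The interaction was -4.83 (SE 1.25, adjusted p = 0.0767; DESeq2 -4.88, adjusted p = 0.000363). Without WT liver 1 or 2 the rise in WT tumours missed the threshold (adjusted p = 0.0718 and 0.0575). An annotated antisense gene within Fbn1, Gm9913, had no count in any library. Elastin (Eln), which is laid on that scaffold, was low, with 0.628 to 9.01 CPM; all WT tumours (4.11 to 9.01 CPM) lay above all other libraries, but no contrast passed (2.30, SE 1.19, adjusted p = 0.284 in WT).

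Dcn and Ecm1 went the other way. Decorin (Dcn, chromosome 10, 97479609 to 97518143, plus strand) binds collagen fibrils and TGF-β, and is made by quiescent stellate cells and fibroblasts. It stood at 278 and 330 CPM in the WT livers, 272 and 206 in the KO livers, 193, 106 and 118 in the WT tumours, and 319, 198 and 282 in the KO tumours. All WT tumours lay below every other library, while the KO tumours overlapped the livers. Dcn fell in WT tumours by -1.13 (SE 0.28, adjusted p = 0.0203), and KO against WT tumours gave 0.94 (SE 0.26), and did not pass (adjusted p = 0.0524); 7 alternatives, DESeq2 among them, called it. The fall in WT tumours was lost without WT liver 2, WT tumour 2 or WT tumour 3 (adjusted p = 0.114, 0.0752 and 0.075). The related proteoglycans did not move with it: Lum ranged from 2.62 to 13.4 CPM with overlapping groups, and Bgn from 65.5 to 133 CPM with contrasts between -0.42 and 0.02 in the tumour comparisons.

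Ecm1 (chromosome 3, 95734147 to 95739569, minus strand) encodes a secreted protein that hepatocytes make and that is known to keep TGF-β latent. It stood at 34.2 and 33.7 CPM in the WT livers, 49 and 44.9 in the KO livers, 14, 20 and 13.2 in the WT tumours, and 22.2, 29.7 and 31.7 in the KO tumours. In both genotypes all tumours lay below all livers, and KO tumours lay above WT tumours. The change was -1.11 (SE 0.29, adjusted p = 0.0278) in WT and -0.75 (SE 0.29, adjusted p = 0.413) in KO mice. KO against WT tumours gave 0.83 (SE 0.27, adjusted p = 0.112). The call in WT mice was lost without either WT liver (adjusted p = 0.104 and 0.0972), without WT tumour 1 or 3 (adjusted p = 0.0775 and 0.0806), and with the compared groups alone (adjusted p = 0.0757).

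Ecm1 and Col6a1 are the members whose promoter window holds a match to the AP-1 motif, the element bound by the JNK target c-Jun. Promoter windows of 250 bases before the RefSeq start were available for 28 of the 43 genes. The motif TGANTCA, read on both strands, was found in 2 of these 28 and in 6.75% of 32851 promoters. The Ecm1 window, chr3:95739570-95739819 on the minus strand of GRCm38.p6, is printed with the match in capitals, at 64 to 58 bases before the start. A match is a description of the letters and not a measured site.
Ecm1 promoter: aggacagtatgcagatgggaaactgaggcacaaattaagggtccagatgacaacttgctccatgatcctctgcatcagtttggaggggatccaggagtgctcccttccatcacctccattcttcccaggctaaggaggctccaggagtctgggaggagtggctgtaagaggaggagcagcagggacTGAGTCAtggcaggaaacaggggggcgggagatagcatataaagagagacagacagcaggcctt

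Sparc, a collagen chaperone outside the cell, stood at 95.4 and 61.6 CPM in the WT livers, 75.5 and 95.5 in the KO livers, 208, 116 and 179 in the WT tumours, and 127, 53.4 and 98.6 in the KO tumours. The WT tumours lay above both WT livers, with a change of 1.10 (SE 0.35, adjusted p = 0.072) that DESeq2 called (adjusted p = 0.0271). Tgfbi, an adhesion protein induced by TGF-β, ranged from 16.5 to 52.4 CPM, and its groups overlapped in every tumour comparison.

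Among 38 other matrix glycoproteins and proteoglycans, 3 rose and 1 fell in WT tumours (3.64% and 4.7% of all genes), and 1 was lower in KO than in WT tumours (1.27% of all genes). Osteopontin (Spp1), which is also a marker on the macrophage and cholangiocyte lists, rose from 16.4 and 6.94 CPM in WT liver to 220, 55 and 75.6 in WT tumours. The Spp1 call was lost without WT liver 2 or WT tumour 1 (adjusted p = 0.133 and 0.0899). Periostin (Postn), a product of activated fibroblasts, had 0 and 1 counts in WT liver and 215, 12 and 115 in WT tumours, and 8 alternatives lost its call, among them those without either WT liver, WT tumour 1 or 3, or any KO tumour (adjusted p from 0.0513 to 0.196). The tumour marker Gpc3 passed in both comparisons, higher in tumours than in liver of WT mice and lower in KO than in WT tumours (-3.86, SE 1.04, adjusted p = 0.0484), the second call being lost in 8 alternatives, among them DESeq2 (adjusted p = 0.162) and the omission of any WT tumour or of KO tumour 1 or 3 (adjusted p from 0.0879 to 0.133). Vitronectin (Vtn), a hepatocyte product, fell by -0.99 (SE 0.19) in WT tumours.

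Lysyl oxidases cross-link collagen and elastin. All 3 members were low, and none passed. Lox had 3 and 1 counts in the WT livers, 17 and 1 in the KO livers, 83, 12 and 64 in the WT tumours, and 1, 20 and 0 in the KO tumours. The WT tumours lay above the WT livers, and the WT change was 4.54 with an SE of 2.50 (adjusted p = 0.315). Loxl2 stood at 2.14 to 2.52 CPM in WT liver and 4.22 to 7.96 CPM in WT tumours, again without overlap. Loxl1 went the other way, with 3.2 and 5.05 CPM in WT liver against 0.26, 0.146 and 2.76 in WT tumours (-1.96, SE 1.29, adjusted p = 0.407). None of 23 genes for collagen synthesis and processing passed in any comparison, with a median of 0.10 in WT tumours against liver.

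Of the proteases and their inhibitors, Mmp14 and Timp2 were the most abundant. Mmp14, a membrane-bound collagenase that activates Mmp2, stood at 55.9 and 26.8 CPM in the WT livers, 33.9 and 22.6 in the KO livers, 77.2, 64.4 and 85.8 in the WT tumours, and 41.1, 21.5 and 45.9 in the KO tumours. All WT tumours lay above the other 7 libraries. KO against WT tumours gave -1.07 (SE 0.33, adjusted p = 0.0855), which DESeq2 called (adjusted p = 0.0447). Timp2, an inhibitor that also takes part in activating Mmp2, ranged from 24.2 to 65 CPM with overlapping groups.

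The other members of this group were near the limit of detection in some libraries, where 3 counts correspond to 0.156 to 0.231 CPM. Timp1, the inhibitor most closely tied to fibrosis, had 0 and 3 counts in the WT livers, 0 and 0 in the KO livers, 80, 11 and 1 in the WT tumours, and 27, 0 and 15 in the KO tumours. Tumours of both genotypes were split between libraries with 11 or more counts and libraries with 0 or 1, and no contrast passed. Mmp2 had 1 to 36 counts and Timp3 0 to 87, with no group apart in the tumour comparisons. Among other proteases and inhibitors, Serpine2, a thrombin inhibitor, fell by -3.61 (SE 0.30) in WT tumours and was higher in KO than in WT tumours by 2.94 (SE 0.28, adjusted p = 1.29e-05).

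**Figure D4:**
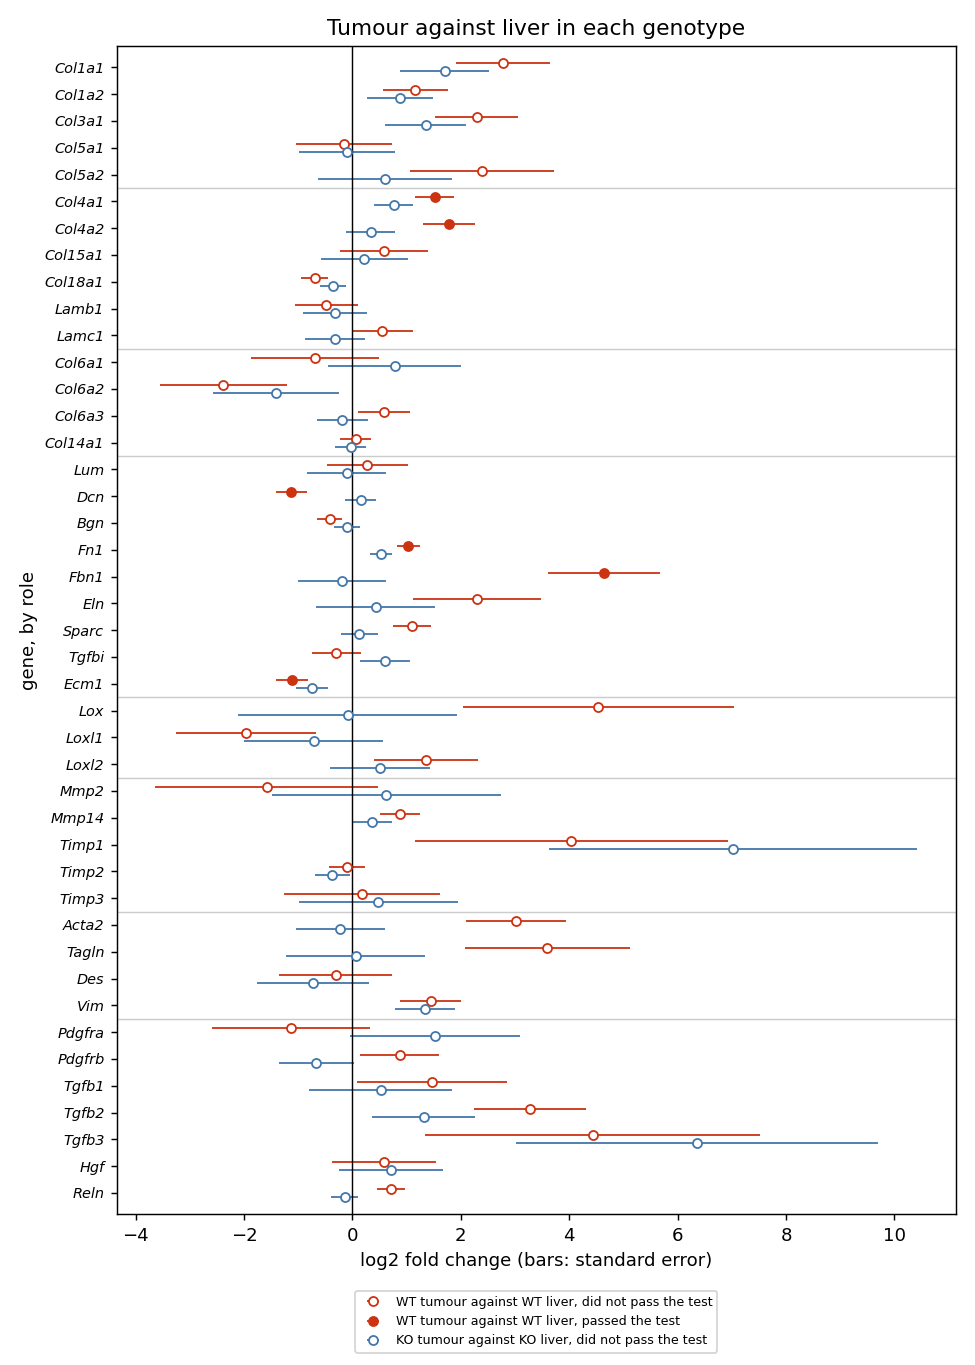
Log2 fold change of tumour against liver for the 43 genes, ordered by role, in WT mice (red) and KO mice (blue), with bars of 1 standard error; filled points passed the test. The 6 filled points are all WT, 4 right and 2 left of 0, and the wide bars of Lox, Timp1 and Tgfb3 belong to genes of few counts.

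The cytoskeletal genes included the clearest marker of the myofibroblast. Acta2 (chromosome 19, 34241090 to 34255590, minus strand) encodes smooth muscle α-actin. It stood at 3.14 and 5.55 CPM in the WT livers, 2.8 and 7.65 in the KO livers, 65.7, 17.9 and 21.9 in the WT tumours, and 8.94, 0.558 and 3.89 in the KO tumours. All WT tumours lay above every other library, while KO tumours spanned the range of the livers and beyond on both sides. Acta2 was lower in KO than in WT tumours by -2.98 (SE 0.78, adjusted p = 0.0407); WT tumours against WT liver gave 3.02 (SE 0.92, adjusted p = 0.0559), KO tumours against KO liver -0.23 (SE 0.82, adjusted p = 0.969) and the interaction -3.24 (SE 1.19, adjusted p = 0.253). The call between the tumours was lost without WT tumour 1 (-2.13, adjusted p = 0.277), WT tumour 3 (-3.19, adjusted p = 0.0615), KO tumour 2 (-2.45, adjusted p = 0.0883) or KO tumour 3 (-2.89, adjusted p = 0.166). The WT tumour-to-liver change was called by DESeq2 (adjusted p = 0.00608) and by 6 other alternatives.

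Transcription of Acta2 is known to depend on CArG boxes, which bind serum response factor. The CArG box, read as CC, then 6 bases of which at least 5 are A or T, then GG, was found in the windows of 5 of the 28 genes (Col1a2, Col6a3, Mmp14, Timp3 and Acta2) and in 8.59% of all promoters. Acta2 holds 2 matches, at 84 to 75 and at 34 to 25 bases before its RefSeq start, and each is printed in capitals with 10 bases on either side, from the minus strand of GRCm38.p6 at chr19:34255438-34255467 and chr19:34255388-34255417. GENCODE places the outermost start of Acta2 upstream of both, at 34255590.
Acta2 box 1: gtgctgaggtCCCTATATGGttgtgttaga
Acta2 box 2: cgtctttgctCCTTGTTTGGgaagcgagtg

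Tagln, an actin-binding protein of smooth muscle and myofibroblasts, had 14 and 0 counts in the WT livers, 46 and 36 in the KO livers, 189, 57 and 35 in the WT tumours, and 51, 28 and 31 in the KO tumours (WT change 3.60, SE 1.52, adjusted p = 0.178). DESeq2 called that change in Tagln (adjusted p = 0.0158). Vim, the intermediate filament of mesenchymal cells and leukocytes, stood at 14.6 and 13.7 CPM in the WT livers, 12.8 and 6.73 in the KO livers, 65.4, 21.6 and 28.1 in the WT tumours, and 38.7, 10.3 and 25.2 in the KO tumours. Its change was similar in size in the 2 genotypes, 1.44 (SE 0.56, adjusted p = 0.141) in WT and 1.34 (SE 0.56, adjusted p = 0.453) in KO, without passing in either. Des, the filament of quiescent stellate cells and muscle, ranged from 0.865 to 6.09 CPM with no group apart in the tumour comparisons. Summed, these 4 genes stood at 22.1 ± 0.549 CPM in the WT livers, 23.1 ± 0.105 in the KO livers, 81.5 ± 52.8 in the WT tumours, and 35.2 ± 20.3 in the KO tumours. Of 9 other smooth muscle genes none passed in any comparison, and their sum was 181, 163, 128 and 151 CPM in the same order of groups, lower in WT tumours than in WT liver although the median of their log2 fold changes was 1.54. Macrophage markers, which share the expression of Vim, summed to 524 ± 16.1 CPM in the WT livers, 658 ± 204 in the KO livers, 1183 ± 313 in the WT tumours, and 958 ± 225 in the KO tumours. In WT tumours 5 of the 18 were higher than in WT liver, beside 3.64% of all genes. The part of the macrophage markers in the Vim values was not tested.

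**Figure D5:**
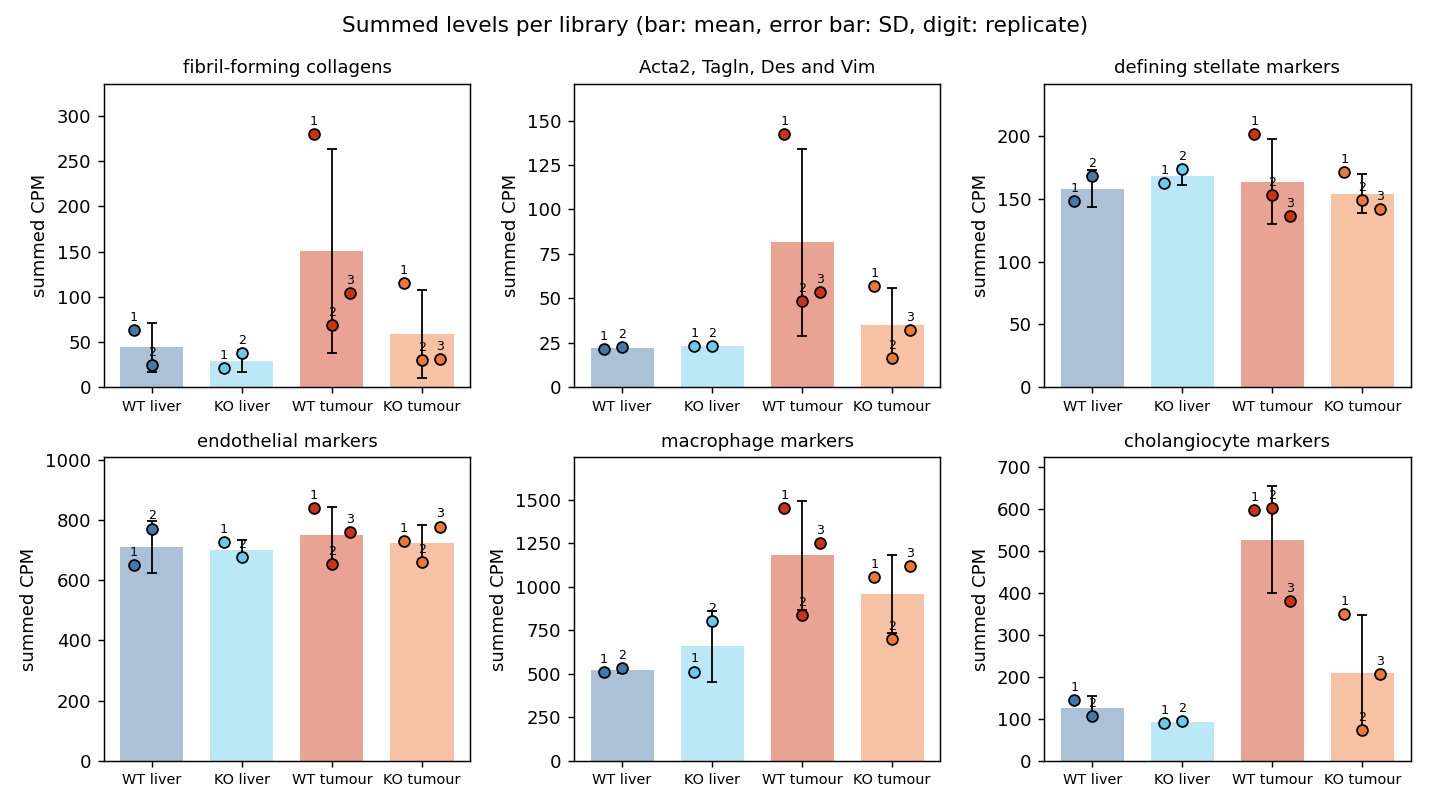
Summed CPM per library for fibril-forming collagens, for the 4 cytoskeletal genes, and for markers of stellate, endothelial, macrophage and bile duct cells; bars are group means, error bars SD, points libraries numbered by replicate. WT tumour 1 lies far above the other WT tumours for the fibril-forming collagens (280 CPM), while the stellate and endothelial sums differ little between the groups. The stellate sum joins genes that differed from liver in opposite directions in WT tumours.

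The receptors and secreted signals were low, apart from Reln. Reelin (Reln, chromosome 5, 21884454 to 22344702, minus strand) is a secreted glycoprotein that in the liver marks stellate cells and lymphatic endothelium. It stood at 44.3 and 53.4 CPM in the WT livers, 44.2 and 47 in the KO livers, 93.8, 73.8 and 72 in the WT tumours, and 42.1, 33.4 and 48.6 in the KO tumours. The WT tumours lay above all other libraries, and the KO tumours overlapped both liver groups. Reln was lower in KO than in WT tumours by -0.95 (SE 0.22, adjusted p = 0.0232), while WT tumours against WT liver gave 0.71 (SE 0.25, adjusted p = 0.107), KO tumours against KO liver -0.14 (SE 0.25, adjusted p = 0.916) and the interaction -0.85 (SE 0.35, adjusted p = 0.332). The call was lost without WT tumour 1 (-0.80, adjusted p = 0.109), WT tumour 2 (-0.98, adjusted p = 0.0512), KO tumour 1 (-0.96, adjusted p = 0.0603) or KO tumour 2 (-0.82, adjusted p = 0.107). Lrat and Colec11, stellate markers in their own right, gave values of the opposite sign in KO against WT tumours, 1.43 (SE 0.52, adjusted p = 0.168) and 0.77 (SE 0.34, adjusted p = 0.304).

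The Reln promoter is shown as an example of the GC-rich windows among these genes. The GC box GGGCGG, bound by Sp1, was found on either strand in the windows of 17 of the 28 genes and in 32.7% of all promoters. The SMAD element CAGAC was found for 15 of the 28 genes and in 42.2% of all promoters. For each motif a gene with several windows was counted as a single gene, whereas the share over all promoters counts each promoter. The Reln window, chr5:22344706-22344955 on the minus strand of GRCm38.p6, holds 6 GC boxes, in capitals, the nearest at 13 to 8 bases before the start.
Reln promoter: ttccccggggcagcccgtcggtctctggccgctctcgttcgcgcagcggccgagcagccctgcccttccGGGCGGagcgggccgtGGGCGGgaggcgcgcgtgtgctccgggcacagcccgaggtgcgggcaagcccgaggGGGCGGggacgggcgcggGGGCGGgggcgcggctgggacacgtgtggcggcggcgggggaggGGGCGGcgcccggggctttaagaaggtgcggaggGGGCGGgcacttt

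Of the TGF-β ligands, Tgfb2 was the one with WT tumours apart from the rest. It stood at 2.07 and 1.32 CPM in the WT livers, 3.2 and 0.0708 in the KO livers, 18.5, 13 and 17.8 in the WT tumours, and 4.62, 5.03 and 2.74 in the KO tumours. The WT tumours lay above every other library, with a change of 3.27 (SE 1.03, adjusted p = 0.0658) that DESeq2 called (adjusted p = 0.00439), and KO against WT tumours gave -1.99 (SE 0.83, adjusted p = 0.254). Tgfb1, the ligand most often tied to fibrosis, ranged from 0.437 to 6.99 CPM, both extremes being WT tumours, and Tgfb3 had 0 or 1 counts in every liver and 0 to 22 in the tumours.

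Genes of the TGF-β and BMP pathways were taken from a list of 34. In KO against WT tumours 2 of them were lower, beside 1.27% of all genes, and none was higher, beside 3.25%. Id1, an early target of BMP signalling, stood at 19 and 11.7 CPM in the WT livers, 14.6 and 23.6 in the KO livers, 160, 75.4 and 90.3 in the WT tumours, and 25.9, 22.9 and 34.5 in the KO tumours. Connective tissue growth factor (Ccn2) stood at 29.5 and 8.07 CPM in the WT livers, 18.5 and 8.29 in the KO livers, 180, 170 and 104 in the WT tumours, and 45.9, 22.1 and 55.9 in the KO tumours. For both genes the WT tumours lay above all other libraries, with rises of 2.83 (SE 0.40) and 3.01 (SE 0.55) and differences between the tumours of -1.97 (SE 0.33, adjusted p = 0.00188) and -1.87 (SE 0.45, adjusted p = 0.0253). Leaving out any tumour library but WT tumour 3 ended the second of those calls (adjusted p from 0.0506 to 0.121). The type II receptor Tgfbr2 (2.05, SE 0.43) and the corepressor Tgif1 (1.41, SE 0.39) also rose; without WT liver 1 the first became 1.45 (adjusted p = 0.0503) and the second 1.04 (adjusted p = 0.259), and Tgif1 also missed the threshold without any single WT tumour (adjusted p from 0.0641 to 0.105).

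The PDGF receptors that mark stellate cells and fibroblasts did not move together. Pdgfrb stood at 4.15 and 3.72 CPM in the WT livers, 12.9 and 7.79 in the KO livers, 12.9, 3.86 and 4.81 in the WT tumours, and 3.39, 7.75 and 8.36 in the KO tumours. Both KO livers lay above both WT livers (1.39, SE 0.78, adjusted p = 0.719), and the tumour groups overlapped. Pdgfra ranged from 0.0642 to 4.54 CPM. Hgf, the stellate cell factor that drives hepatocyte growth, ranged from 0.943 to 8.8 CPM and passed in no comparison. Of 14 other PDGF and HGF pathway genes, 1 passed in WT tumours against liver, the HGF activator Hgfac, which rose by 1.21 (SE 0.22) and was lower in KO than in WT tumours by -1.01 (SE 0.19, adjusted p = 0.00507). Of all genes, 3.64% rose in WT tumours and 1.27% were lower in KO than in WT tumours.

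Among receptors for the matrix, 2 of 20 rose and 1 fell in WT tumours, beside 3.64% and 4.7% of all genes. The collagen receptor Ddr1 stood at 4.15 and 1.89 CPM in the WT livers, 1.83 and 6.3 in the KO livers, 43.4, 64.7 and 40.3 in the WT tumours, and 13.5, 2.37 and 12 in the KO tumours. It rose by 4.03 (SE 0.75, adjusted p = 0.00306) and was lower in KO than in WT tumours by -2.41 (SE 0.58, adjusted p = 0.0268), a call lost without any WT tumour (adjusted p from 0.0578 to 0.127) and without KO tumour 2 or 3 (adjusted p = 0.0659 and 0.0746). The laminin receptor Itga6 rose by 3.55 (SE 0.84, adjusted p = 0.0147), a call lost without WT liver 1 or WT tumour 2 (adjusted p = 0.09 and 0.0616). Lrp1, which clears proteases, fell by -0.91 (SE 0.20, adjusted p = 0.0101), and this was lost without WT liver 1 (adjusted p = 0.0722).

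Among 20 other stellate cell genes, Colec10, a lectin related to Colec11, was higher in KO than in WT tumours (1.83, SE 0.49, adjusted p = 0.0484), beside 3.25% of all genes. The Colec10 call was lost without WT tumour 2 or 3 or any KO tumour (adjusted p from 0.0684 to 0.152). Over the 20 genes the median was -0.50 in WT tumours against liver, the opposite sign to the median of the 43.

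The spread of the 43 genes among replicates was wider than that of all genes tested in the tumours, and near it in the livers. The median coefficient of variation of the 43 genes was 52.4% in WT tumours and 41.7% in KO tumours, against 35.8% and 33.7% over all genes tested. In liver the values were 34.1% in WT and 29.6% in KO, against 32.6% and 31.7%. Coefficients from 2 liver libraries and from 3 tumour libraries are not directly comparable. The summed level of all 43 was 2129 to 2134 CPM in the WT livers, 1819 to 1906 in the KO livers, 2704 to 3277 in WT tumours and 1879 to 2335 in the KO tumours. By group mean its largest parts were Fn1, Col18a1 and Dcn in both liver groups and the KO tumours, and Fn1, Col18a1 and Sparc in the WT tumours.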

How the data were processed

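Per the labels' protocols, 50 ng of RNA from each of 10 livers or liver tumours went into QuantSeq 3' libraries, which keep the strand. The authors deposited whole-number read counts per gene, not normalized. BWA, featureCounts and the mm10 build are named in the submitters' processing notes. Annotation and strand setting: not given in the sources used here; exons of 19 of the 43 genes overlap another gene's. Counts were tested with R 4.3.3 and edgeR 4.0.16: filterByExpr, TMM, 1 quasi-likelihood fit of the 4 group means over all 10 libraries, and Benjamini-Hochberg adjustment per comparison. Alternatives were DESeq2 1.42.0, RLE and upper-quartile scaling, no filter, the compared groups only, a replicate block and leaving out each library. The model was tested on simulated data. Limits for counts of 0 use 3 counts per library and cover counting error only. Replicates in a group gave no duplicate libraries. Same-numbered libraries did not deviate together (r across genes from -0.0062 to 0.020), so numbers were not used as a block. Positions are GENCODE M21 (GRCm38) and promoters RefSeq (GRCm38.p6).

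The 43 genes and the lists set beside them were chosen with earlier results of these data known. Values per library are given for genes that passed in any comparison, the most abundant genes of each role and defining stellate markers; other lists are given as counts with at most 6 genes by smallest p. In the lists 318 of 319 genes had a symbol in the table. Some genes of these lists are not reported here.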

Additional observations from a re-analysis of the deposited data

Results flagged for a closer look

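None of the 43 genes met a rule for a closer look. In the lists beside them, 6 genes changed differently from liver to tumour in KO and WT mice by the interaction test of edgeR. The thrombin inhibitor Serpine2 had an interaction of 3.38 (SE 0.42, adjusted p = 0.000437): it stood at 89.1 and 65.9 CPM in the WT livers, 64.2 and 50.4 in the KO livers, 8.54, 4.66 and 5.71 in the WT tumours, and 44.2, 53.4 and 48.8 in the KO tumours. Id1 had an interaction of -2.29 (SE 0.51, adjusted p = 0.0334), which was lost without WT liver 2, KO liver 2, WT tumour 1 or 3, or any KO tumour (adjusted p from 0.05 to 0.124). Hgfac had an interaction of -1.47 (SE 0.30, adjusted p = 0.0185), with 95.6 and 123 CPM in the WT livers, 138 and 164 in the KO livers, 257, 272 and 231 in the WT tumours, and 127, 129 and 122 in the KO tumours. It was lost without WT liver 1, KO liver 2 or KO tumour 3 (adjusted p = 0.0984, 0.0982 and 0.0599). In the hepatocyte list Alb, the apolipoprotein gene Apoa1 and Ahsg passed too, with interactions of -1.43 (SE 0.31, adjusted p = 0.0275), -1.79 (SE 0.33, adjusted p = 0.00949) and -1.75 (SE 0.34, adjusted p = 0.0147). Alb was lost in 8 of 15 alternatives (adjusted p from 0.05 to 0.119), Apoa1 without KO liver 1 (adjusted p = 0.0519) and Ahsg without WT liver 1 or KO liver 2 (adjusted p = 0.0664 and 0.0577). For each of the 6 genes the test is of the difference between the genotypes' tumour-to-liver changes.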

How the results depend on the processing

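Of 104 single-gene results, 73 passed the test as reported, 33 of those under every alternative run, and none reversed. The number of the 43 genes higher in tumours than in liver of WT mice, 4, became 11 with DESeq2, 11 with no filter on low counts and 7 with the compared groups only, and 0 to 7 when leaving out 1 library each. The number lower, 2, became 1 with the compared groups only and 0 to 2 when leaving out 1 library each. In KO tumours against KO liver 1 gene was higher with no filter on low counts, and in KO against WT liver 1 with DESeq2. In KO against WT tumours the number higher, 0, became 1 with DESeq2, 1 with no filter on low counts and 0 to 1 when leaving out 1 library each. The number lower, 4, became 9 with no filter on low counts and 1 to 5 when leaving out 1 library each. In the interaction 1 gene was higher and 1 lower with no filter on low counts, and 1 lower with DESeq2. With a replicate block 1 gene was lower in WT tumours (in place of 2) and 1, Dcn, higher in KO than in WT tumours; same-numbered libraries share no more than a number. The median over the 43 genes in WT tumours ranged from 0.39 (without WT tumour 1) to 0.86 when leaving out 1 library each. In KO against WT liver it was -0.12 with RLE size factors, -0.12 with no filter on low counts and -0.17 to 0 when leaving out 1 library each. The summed level in WT liver was 2117 CPM with upper-quartile scaling, against 2132. Over all genes, DESeq2 called 1265 higher in WT tumours (edgeR 575), 385 higher and 42 lower in KO tumours against KO liver (12 and 0), 89 and 113 in KO against WT liver (0 and 1), 823 and 393 in KO against WT tumours (514 and 201), and 469 and 263 in the interaction (193 and 58). With no filter on low counts, 925 were higher in WT tumours and 435 lower in KO than in WT tumours. Leaving out 1 library each gave 365 to 710 and 91 to 269 for these last 2. The cause of these differences was not tested. Few counts limit Lox, Timp1, Mmp2, Tgfb3 and Pdgfra in particular.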
